A study of Mus musculus with 8 samples.

Results

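Secretoglobins and other genes grouped here as club cell products were followed in sorted lung epithelium. The 5 genes (Scgb1a1, Scgb3a1, Scgb3a2, Cyp2f2 and Cbr2) were chosen by symbol from the 13265 genes of the count table. Epithelial cells (EpCAM+ CD31- CD45-) were sorted from the lungs of 3 LPS mice and 5 PBS mice, 10000 cells per mouse, and each mouse gave 1 bulk MARS-seq library, in which transcripts are counted at their 3′ end by unique molecular identifiers (UMIs). LPS mice inhaled aerosolized Escherichia coli LPS at 0.5 mg/ml in PBS and PBS mice the same aerosol without LPS, in sessions of 30 min, 3 times per week for 10 weeks. All 8 mice carried the C57BL6 background and no engineered allele is named in the labels. The study used female C57BL/6 mice of 10 to 14 weeks of age as its young animals. Libraries carry the numbers of the table's columns, with s4, s14 and s18 for the LPS group, and s1, s2, s6, s11 and s16 for the PBS group. Library totals ran between 2739340 and 4445431 UMIs in LPS mice and between 2232727 and 2890560 UMIs in PBS mice. Epcam, the gate's own marker, had between 107 and 137 CPM (UMIs scaled to the library's TMM-normalized total) in LPS mice and between 107 and 148 CPM in PBS mice.

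Club cells are the non-ciliated secretory cells that line the conducting airways. They release secretoglobins, small disulfide-linked proteins of the airway lining fluid, and they carry enzymes that oxidize and reduce inhaled compounds. They also serve as progenitors that can replace themselves and ciliated cells after injury. Scgb1a1 encodes the club cell secretory protein and is the gene most used to mark these cells. Scgb3a1 and Scgb3a2 encode further secretoglobins of the airways, and NKX2-1, the master factor of lung epithelium, is a known activator of Scgb1a1 and Scgb3a2. Cyp2f2 encodes a cytochrome P450 that turns naphthalene into a toxic epoxide inside club cells, and Cbr2 a carbonyl reductase that is abundant in mouse lung. The sorted cells hold all epithelial types together, so fewer club cells and less transcript per club cell cannot be told apart in these libraries. Nor do the libraries show which epithelial cells a transcript came from. The name club cell gene is therefore a grouping only. The part of other epithelial cells in the Cbr2 transcripts was not tested.

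In RefSeq's annotation of GRCm38.p6, the same assembly as mm10, Scgb1a1 lies on chromosome 19 (9083642 to 9087956), Scgb3a1 on chromosome 11 (49663595 to 49665118), Cyp2f2 on chromosome 7 (27119955 to 27133660) and Cbr2 on chromosome 11 (120729485 to 120732025). Promoter windows are shown for Scgb3a1, Cyp2f2 and Cbr2, that is, for 1 secretoglobin and both enzymes, which varied differently between the mice as described further on. The bases before the first annotated transcript start are shown 5′ to 3′ on the gene's own strand, with capitals for matches to a forkhead motif (TGTTTAC or TGTTTGC) or a core NKX2-1 motif (CAAGTG or CAAGAG), each searched on both strands. No match of one motif overlapped a match of the other.
Scgb3a1 (chr11:49663345-49663594, + strand): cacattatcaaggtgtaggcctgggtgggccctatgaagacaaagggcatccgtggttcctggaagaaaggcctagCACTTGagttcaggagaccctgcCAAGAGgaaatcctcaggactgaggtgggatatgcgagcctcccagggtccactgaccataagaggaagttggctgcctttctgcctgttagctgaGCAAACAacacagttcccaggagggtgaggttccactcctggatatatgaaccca
Cyp2f2 (chr7:27119705-27119908, + strand): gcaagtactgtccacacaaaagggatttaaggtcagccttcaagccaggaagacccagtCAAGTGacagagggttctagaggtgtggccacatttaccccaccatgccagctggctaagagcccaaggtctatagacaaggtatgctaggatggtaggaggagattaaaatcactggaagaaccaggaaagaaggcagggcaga
Cbr2 (chr11:120732115-120732271, - strand): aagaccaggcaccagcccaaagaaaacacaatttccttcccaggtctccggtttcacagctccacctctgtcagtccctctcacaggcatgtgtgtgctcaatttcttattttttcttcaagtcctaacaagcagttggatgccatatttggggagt
Scgb3a1 held a forkhead match 55 to 49 bases before the RefSeq start and NKX2-1 matches at 174 to 169 and 151 to 146 bases before it. Cyp2f2 held 1 NKX2-1 match, 191 to 186 bases before its RefSeq start. The letters of neither motif stood in the 250 bases searched for Cbr2, the last few of which lie within the gene's span given above. Of all 32817 RefSeq promoter windows, 7.29% held the forkhead letters in their first 250 bases, 25.2% the NKX2-1 letters and 2.08% both. These matches are a description of the letters and not of binding.

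The comparison of LPS with PBS mice asks how the epithelium of the chronically inflamed lung differs from that of mice that inhaled the vehicle. None of the 5 club cell genes was called, against 2.03% of the 12661 genes tested, where a call is a Benjamini-Hochberg adjusted p under 0.05 in edgeR's quasi-likelihood test and a log2 fold change beyond 0.32 in either direction. The same count of 0 was found with DESeq2 and with limma-voom. At an unadjusted p under 0.05, 1 of the 5 genes was higher (Cyp2f2) and none lower, against 10.4% of all genes higher and 7.64% lower. For none of the 5 did the LPS and PBS libraries separate without overlap, which 14.4% of all genes did (8.52% with LPS higher and 5.86% with LPS lower). The genes fell into 3 kinds: the secretoglobins, whose levels spread widely among mice of each group, Cyp2f2, whose LPS libraries lay at the top of the range, and Cbr2, which was nearly level in all 8 mice.

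**Figure D1:**
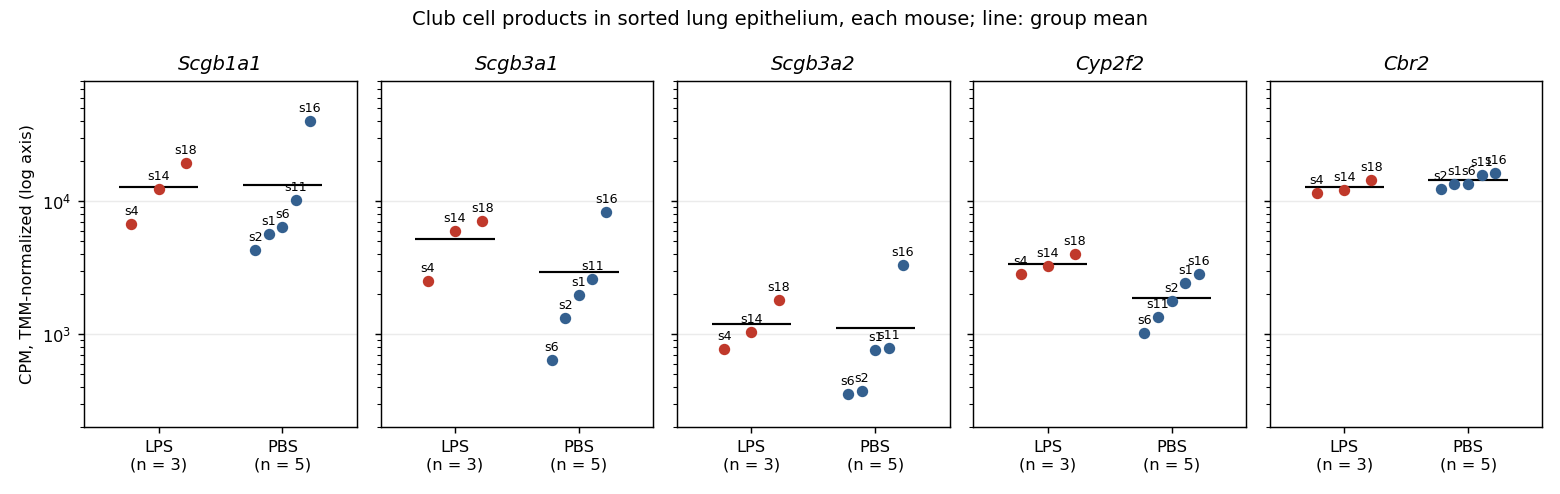
CPM (TMM-normalized, log axis) of the 5 club cell genes in each mouse, LPS mice left and PBS mice right in each panel, with the library number above each point and a line at the group's mean CPM. PBS s16 stood above the other 4 PBS mice for the 3 secretoglobins (40135 CPM of Scgb1a1), while the 8 mice lay close together for Cbr2.

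Scgb1a1 had 6761, 12371 and 19348 CPM in LPS libraries s4, s14 and s18, against 5660.5, 4314, 6421, 10148 and 40135 CPM in PBS libraries s1, s2, s6, s11 and s16. All 3 LPS libraries were above 3 of the PBS libraries (s1, s2 and s6), and PBS s16 was above every other library, so the groups overlapped. The mean was 12827 ± 6306 CPM in LPS mice and 13336 ± 15137 CPM in PBS mice (SD, n = 3 and n = 5). The log2 fold change was −0.06 (SE 0.66, 95% interval −1.502 to 1.39, edgeR adjusted p = 0.98). Scgb1a1 transcripts ranked between the 3rd and the 8th most counted of all genes in LPS libraries and between the 2nd and the 11th in PBS libraries. These are ranks of UMIs, each of which stands for 1 transcript molecule irrespective of its length.

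Scgb3a1 had 2528, 5926 and 7094 CPM in LPS libraries s4, s14 and s18, against 1974, 1319, 640.3, 2596 and 8239 CPM in PBS libraries s1, s2, s6, s11 and s16. LPS s14 and s18 exceeded 4 of the 5 PBS libraries, LPS s4 lay just under PBS s11, and PBS s16 was again the highest. The mean was 5182.5 ± 2372 CPM in LPS mice and 2954 ± 3043 CPM in PBS mice (SD, n = 3 and n = 5). The log2 fold change was 0.81 (SE 0.64, 95% interval −0.58 to 2.203, edgeR adjusted p = 0.55), a difference within the spread between mice.

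Scgb3a2, the third lung secretoglobin, had 771, 1035 and 1810.4 CPM in LPS libraries s4, s14 and s18, against 766, 376, 357, 787 and 3305 CPM in PBS libraries s1, s2, s6, s11 and s16. LPS s4 was at the level of PBS s1 and s11, and PBS s16 was the highest of the 8. The mean was 1205 ± 540.3 CPM in LPS mice and 1118 ± 1239 CPM in PBS mice (SD, n = 3 and n = 5). The log2 fold change was 0.11 (SE 0.64, 95% interval −1.28 to 1.499, edgeR adjusted p = 0.95).

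Cyp2f2, the naphthalene-activating P450, had 2854, 3236 and 4003 CPM in LPS libraries s4, s14 and s18, against 2429, 1781, 1021, 1354 and 2859 CPM in PBS libraries s1, s2, s6, s11 and s16. LPS s14 and s18 were above all PBS libraries, and LPS s4 lay just under PBS s16, so the groups overlapped by 1 pair of libraries. The mean was 3364 ± 585 CPM in LPS mice and 1889 ± 756 CPM in PBS mice (SD, n = 3 and n = 5). The log2 fold change was 0.83 (SE 0.29, 95% interval 0.20 to 1.47, edgeR adjusted p = 0.16), so the difference, past the threshold only before adjustment, failed the correction over all genes. A two-sided exact permutation test of its mean log2 CPM over the 8 libraries gave p = 0.0714, where the smallest p that this design allows is 0.0179.

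Cbr2, the carbonyl reductase, had 11555, 12119.8 and 14452 CPM in LPS libraries s4, s14 and s18, against 13495, 12362, 13576, 15824.5 and 16374 CPM in PBS libraries s1, s2, s6, s11 and s16. Only LPS s4 and s14 lay below every PBS library. The mean was 12709 ± 1536 CPM in LPS mice and 14326 ± 1699 CPM in PBS mice (SD, n = 3 and n = 5). The log2 fold change was −0.17 (SE 0.19, 95% interval −0.59 to 0.24, edgeR adjusted p = 0.69). Cbr2 was between the 4th and the 6th most counted gene in all 8 libraries.

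The 3 secretoglobins were among the most uneven abundant genes of the PBS mice. The coefficient of variation over the 5 PBS mice was 113.5% for Scgb1a1, 110.9% for Scgb3a2 and 103% for Scgb3a1, against a median of 15.4% over the 1656 genes with a mean of at least 100 CPM in these mice. Only 2 of those genes had a higher coefficient than Scgb1a1, 4 a higher one than Scgb3a2 and 6 a higher one than Scgb3a1. These few were Ltf (132.9%), which encodes lactoferrin, and the airway secretory genes Bpifa1 (125.7%), Tff2 (113.5%) and Reg3g (108.2%), beside the secretoglobins themselves. Ltf, Tff2 and Reg3g are named here after their values were seen. The coefficient was 40.0% for Cyp2f2 and 11.9% for Cbr2, which was steadier than 1158 of the 1656 genes. The highest PBS mouse exceeded the lowest 12.9-fold for Scgb3a1, 9.30-fold for Scgb1a1 and 9.27-fold for Scgb3a2, but 2.80-fold for Cyp2f2 and 1.32-fold for Cbr2. Among the LPS mice the same range was 2.81-fold for Scgb3a1, 2.86-fold for Scgb1a1, 2.35-fold for Scgb3a2, 1.40-fold for Cyp2f2 and 1.251-fold for Cbr2. Counting error was small beside this spread, since the lowest Scgb3a2 count of any library was 895 UMIs (exact Poisson 95% interval 837 to 956, counting error only).

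PBS library s16 stood apart within this spread. It was the highest of the 8 libraries for 4 of the 5 club cell genes (Cyp2f2 was the exception) and for 12 of 18 other secretory products, against 2 of 13 ciliated markers and 18.4% of all genes tested. The median difference between s16 and the other 4 PBS libraries was 2.51 on the log2 scale over the 5 club cell genes, 1.88 over the 18 other secretory products, 0.53 over the ciliated markers and 0.04 over all genes. Without s16, Scgb1a1 averaged 6636 ± 2498 CPM, Scgb3a1 1632 ± 842 CPM and Scgb3a2 571 ± 237 CPM in the PBS mice that were left (SD, n = 4). Against these, the log2 fold change of LPS over PBS was 0.95 for Scgb1a1 (edgeR adjusted p = 0.19), 1.67 for Scgb3a1 (adjusted p = 0.080), 1.08 for Scgb3a2 (adjusted p = 0.13) and 1.03 for Cyp2f2 (adjusted p = 0.076). The sign of Scgb1a1 turned with this library, and the values of the secretoglobins moved by more than 1.5-fold, but no gene of the 5 was called with or without it. Cbr2 stayed near 0 without s16 (−0.12, adjusted p = 0.80).

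**Figure D2:**
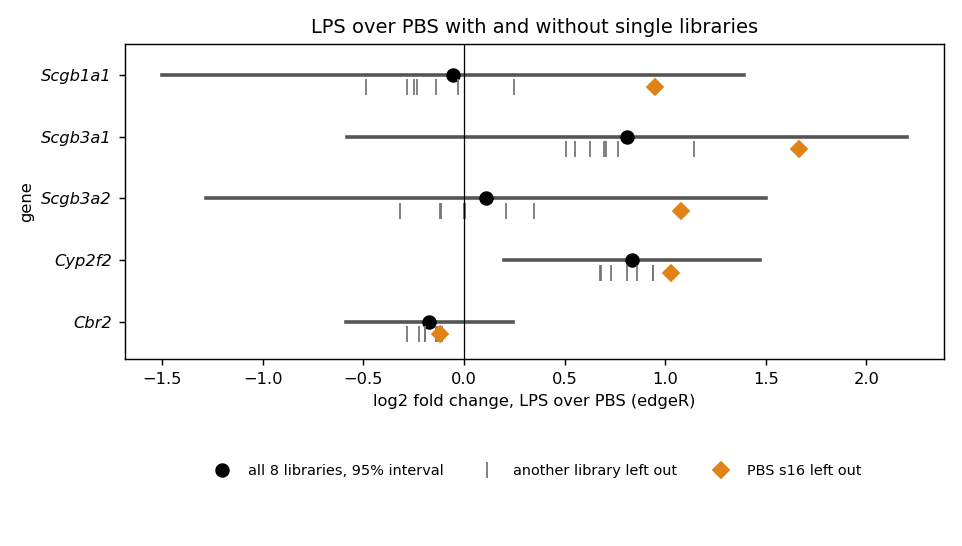
Log2 fold change of LPS over PBS (edgeR, x axis) for the 5 club cell genes, with all 8 libraries (black, with the 95% interval), with PBS s16 left out (orange) and with each other library left out (grey ticks). Leaving out PBS s16 moved Scgb1a1 to 0.95 and Scgb3a1 to 1.67, and Cbr2 moved least.

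Low secretoglobin levels in PBS mice were not shared by the same libraries for all genes. PBS s6 was the lowest library for Scgb3a1, Scgb3a2 and Cyp2f2, and PBS s2 was the lowest for Scgb1a1. PBS s6 was also the lowest for the ciliated gene Tppp3, with 648 CPM, against 1364.9 to 1609 CPM in the other 4 PBS libraries. The mean log2 CPM of 13 ciliated markers was 5.97 in PBS s6, against 7.18 to 7.64 in the other PBS libraries. The part of ciliated cells in the low values of this library was not tested.

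**Figure D3:**
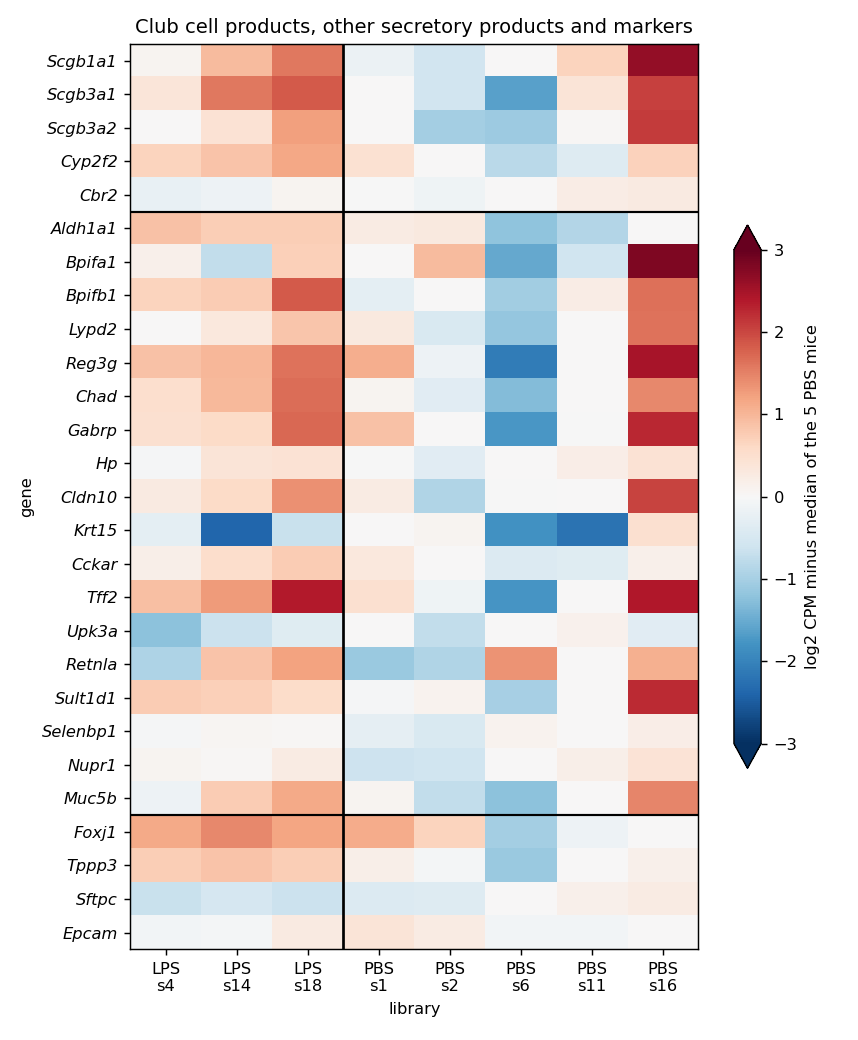
Log2 CPM minus the median of the 5 PBS mice (colour, cut at 3 in both directions) for the 5 club cell genes, 18 other secretory products and 4 marker genes (rows) in the 3 LPS and 5 PBS libraries (columns). PBS s16 and, to a lesser degree, LPS s18 were high in most secretory rows and PBS s6 was low, while Cbr2 changed little.

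The secretoglobins varied together across the 8 mice. Pearson's r of log2 CPM was 0.936 for Scgb1a1 and Scgb3a2 (exact permutation p = 0.000769, adjusted over 20 pairs 0.0102), and Spearman's rho was 0.929 (p = 0.00223, adjusted 0.0149). For Scgb3a1 and Scgb3a2 r was 0.925 (exact permutation p = 0.00102, adjusted 0.0102), and the 2 genes ranked the 8 mice in the same order (rho = 1.0, p = 4.96e-05, adjusted 0.000992). For Scgb1a1 and Scgb3a1 r was 0.834 (exact permutation p = 0.009, adjusted 0.0467) and rho 0.929 (p = 0.00223, adjusted 0.0149). Without the 2 mice farthest from the median of the first gene, r was 0.725, 0.923 and 0.701 for these 3 pairs in the order given, and in deviations from the group means it was 0.938, 0.945 and 0.872. The points share library preparation, depth and group, and PBS s16 was among the mice left out in all 3 pairs.

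Cyp2f2 followed Scgb3a1 (r = 0.83, exact permutation p = 0.0117, adjusted 0.0467; rho = 0.786, p = 0.0279, adjusted 0.0931) more than Scgb1a1 (r = 0.497, exact permutation p = 0.211, adjusted 0.325; rho = 0.667, p = 0.0831, adjusted 0.208), though the difference between these coefficients was not tested. It also followed the ciliated regulator Foxj1 (r = 0.827, exact permutation p = 0.0109, adjusted 0.0467; rho = 0.833, p = 0.0154, adjusted 0.0769). That relation rested on PBS s6 and s11, without which r was 0.345. Within groups, r was 0.783 for Cyp2f2 with Scgb3a1 and 0.666 with Foxj1. Cbr2 and Cyp2f2, the 2 enzymes, had r = −0.134 (exact permutation p = 0.744, adjusted 0.827; rho = −0.071, p = 0.882, adjusted 0.977). The value of r for Cbr2 with the alveolar type II gene Sftpc, surfactant protein C, was 0.769 (exact permutation p = 0.034, adjusted 0.113; rho = 0.738, p = 0.0458, adjusted 0.131), and 0.538 without LPS s4 and PBS s16. None of the 3 pairs of Cbr2 with a secretoglobin passed the correction (r between 0.326 and 0.658). In deviations from the group means, however, r of Cbr2 was 0.867 with Scgb1a1, 0.811 with Scgb3a2 and 0.748 with Scgb3a1, values given with no test. Within each group Cbr2 ranked the mice in the same order as Scgb1a1, over a far narrower range of levels.

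Among the 8435 genes with a mean of at least 10 CPM, those most like each club cell gene over the 8 mice were found by Pearson's r. Scgb1a1 was nearest to the vitamin D receptor gene Vdr (0.976), followed by the claudin gene Cldn10 (0.938), Lrrc26 (0.937), Scgb3a2 (0.936) and Gtf2e2 (0.931). Scgb3a1 was nearest to Muc5b (0.98), the gel-forming mucin of airway secretory cells, then to Chad (0.977), Gtf2f2 (0.967), Tff2 (0.957) and Abr (0.957). Scgb3a2 was nearest to Lypd2 (0.969), Muc5b (0.966), Aldh3a1 (0.961), Srsf9 (0.957) and Cldn10 (0.948). Cyp2f2 was nearest to Zfp703 (0.979), Denn2b (0.972), Gp2 (0.972), Ikbke (0.968) and Atp2c2 (0.966), and Cbr2 to Washc5 (0.957), Coq7 (0.955), Dbi (0.951), Rab5b (0.946) and Tfb1m (0.945). These r values were picked as the highest of many and carry no test. The nearest 84 genes (the top 1%) held both other secretoglobins for Scgb1a1 and for Scgb3a2, 1 of them (Scgb3a2) for Scgb3a1, and no other club cell gene for Cyp2f2 or Cbr2. They held 4 of the 18 other secretory products for Scgb1a1, 7 for Scgb3a1, 9 for Scgb3a2, 1 for Cyp2f2 and none for Cbr2. These neighbours depended on the measure. In deviations from the group means the nearest 84 held 1 other secretoglobin for Scgb1a1 (Scgb3a2), and the counts of secretory products were 2, 7, 7, 3 and 1 for the 5 genes in the same order. The gene nearest to Scgb1a1 was then Rpl35a (0.985), and by Spearman's rho Dnajc17 (0.976), in place of Vdr.

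Ratios of counts within a library do not depend on how libraries are scaled. Each of the 10 ratios between the club cell genes was compared by a two-sided exact permutation test, and none passed after adjustment over the 10. The ratio of Cyp2f2 to Cbr2 had the smallest p. Its log2 value was −2.02, −1.91 and −1.85 in LPS libraries s4, s14 and s18, against −2.47, −2.79, −3.73, −3.55 and −2.52 in PBS libraries s1, s2, s6, s11 and s16. The LPS libraries were all above the PBS libraries, by a mean of 1.09 (exact permutation p = 0.0357, adjusted 0.238). The log2 ratio of Scgb1a1 to Scgb3a1 was 1.42, 1.06 and 1.45 in LPS libraries s4, s14 and s18, against 1.52, 1.71, 3.33, 1.97 and 2.28 in PBS libraries s1, s2, s6, s11 and s16. It was below every PBS library in all 3 LPS libraries, with a mean difference of −0.85 (exact permutation p = 0.0714, adjusted 0.238). Scgb3a1 relative to Scgb3a2 was 0.66 higher in LPS mice (exact permutation p = 0.0714, adjusted 0.238), and Scgb1a1 relative to Scgb3a2 differed by −0.20 (exact permutation p = 0.518, adjusted 0.647). The widest difference in means was that of Scgb3a1 to Cbr2, 1.38 higher in LPS mice, but with overlapping groups (exact permutation p = 0.143, adjusted 0.357). PBS s6, the library with the fewest Scgb3a1 transcripts, had the highest ratio of Scgb1a1 to Scgb3a1 of all 8.

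Each club cell gene was also set against 4 markers of the sorted cells: Sftpc, the ciliated genes Foxj1 and Tppp3, and Epcam. None of these 20 ratios passed after adjustment. Cbr2 relative to Tppp3 was lower in LPS mice. Its log2 ratio was 2.29, 2.25 and 2.62 in LPS libraries s4, s14 and s18, against 3.07, 3.18, 4.39, 3.48 and 3.38 in PBS libraries s1, s2, s6, s11 and s16. The LPS libraries all lay below the PBS libraries, with a mean difference of −1.11 (exact permutation p = 0.0179, the smallest p the design can give, adjusted 0.214). The corresponding difference for Cyp2f2 over Tppp3 was −0.02 (exact permutation p = 0.946, adjusted 0.964), and its LPS and PBS libraries overlapped. Cyp2f2 relative to Epcam was 0.97 higher in LPS mice (exact permutation p = 0.0357, adjusted 0.214), and relative to Sftpc 1.44 higher (exact permutation p = 0.0536, adjusted 0.214). Scgb3a1 relative to Sftpc was 1.74 higher (exact permutation p = 0.0893, adjusted 0.298). The other ratios of Cbr2 differed by 0.35 with Sftpc (exact permutation p = 0.0536, adjusted 0.214), −0.12 with Epcam (p = 0.571, adjusted 0.774) and −1.31 with Foxj1 (p = 0.0536, adjusted 0.214). Tppp3 itself differed by 0.94 in mean log2 CPM between LPS and PBS mice (exact permutation p = 0.0179), and Cbr2 by −0.17 (exact permutation p = 0.232).

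The genes around the club cell products were read from lists, given here by counts and medians beside those of all genes. All tested genes had a median log2 fold change of −0.02, with 1.46% called higher and 0.569% called lower. Of the 21 other mouse secretoglobins listed, 1 was in the table, Scgb1c1, a secretoglobin known from olfactory mucosa. It had 49.2, 44.1 and 64.5 CPM in LPS libraries s4, s14 and s18, against 44.9, 63.5, 101 and 105 CPM in PBS libraries s1, s2, s6 and s11 and 143 CPM in PBS s16. The 3 LPS mice lay below PBS s6, s11 and s16, and the log2 fold change of −0.79 (SE 0.31) did not pass (edgeR adjusted p = 0.21). Of 18 other secretory products of the airway, none was called, 14 had a positive and 4 a negative fold change, and the median was 0.21. Aldh1a1, which makes retinoic acid from retinal, averaged 662 ± 39.8 CPM in LPS mice and 336 ± 141 CPM in PBS mice (SD, n = 3 and n = 5), with no overlap between the groups (log2 fold change 0.98, edgeR adjusted p = 0.12, and 0.040 with DESeq2). Chad, which encodes the matrix protein chondroadherin, stood at 0.89 (edgeR adjusted p = 0.33). It was called once PBS s16 was left out, at 1.44 (edgeR adjusted p = 0.047). The cholecystokinin receptor gene Cckar stood at 0.56 (edgeR adjusted p = 0.21) and Hp, haptoglobin, at 0.20 (adjusted p = 0.63). Bpifa1, an abundant secreted airway protein, stood at −0.98 (adjusted p = 0.56), and at 0.17 without PBS s16.

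Enzymes that process inhaled compounds are the other hallmark of club cells. Of 17 oxidation enzymes tested besides Cyp2f2, 1 rose and 1 fell, and the list's median was −0.08. Cyp2a5, a P450 that oxidizes coumarin, had 200.3, 261 and 161 CPM in LPS libraries s4, s14 and s18, against 107, 88.6, 31.5, 46.3 and 80.8 CPM in PBS libraries s1, s2, s6, s11 and s16. The LPS mice were all above the PBS mice (log2 fold change 1.54, SE 0.32, edgeR adjusted p = 0.032). This call was lost without LPS s4 (adjusted p = 0.11), LPS s14 (0.16), LPS s18 (0.073) or PBS s11 (0.097), and reads of Cyp2a5 can be hard to separate from its near-identical copy Cyp2a4. Aox3, an aldehyde oxidase, had 158, 143 and 172 CPM in LPS libraries s4, s14 and s18, against 253, 241, 271, 257 and 291 CPM in PBS libraries s1, s2, s6, s11 and s16. It fell in LPS mice without overlap (log2 fold change −0.73, SE 0.13, edgeR adjusted p = 0.015), and the call was lost without LPS s4 (adjusted p = 0.087), LPS s14 (0.081) or LPS s18 (0.064). Fmo2, the lung flavin monooxygenase, stood at −0.72 (adjusted p = 0.070, and 0.016 with DESeq2), the airway P450 gene Cyp2s1 at 0.83 (adjusted p = 0.19) and the cytochrome b5 reductase gene Cyb5r3 at 0.05 (adjusted p = 0.90).

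Of 22 enzymes of carbonyl and aldehyde metabolism besides Cbr2, 1 rose and none fell, with a median of −0.04. Aldh3b1, which oxidizes lipid-derived aldehydes, had 617, 834 and 603 CPM in LPS libraries s4, s14 and s18, against 472, 317, 199.6, 339 and 337 CPM in PBS libraries s1, s2, s6, s11 and s16. The groups did not overlap (log2 fold change 1.04, SE 0.23, edgeR adjusted p = 0.041). The call was lost without any one of LPS s4, s14 and s18 and PBS s2, s11 and s16, with adjusted p values of 0.11, 0.21, 0.10, 0.074, 0.11 and 0.056 in this order. Cbr3, a carbonyl reductase like Cbr2, stood at 0.62 (edgeR adjusted p = 0.079, 0.027 without PBS s16, and 0.028 with DESeq2), with LPS libraries all above PBS libraries. The alcohol dehydrogenase gene Adh1 stood at −0.81 (adjusted p = 0.30), the aldehyde reductase gene Akr1a1 at −0.07 (adjusted p = 0.87) and the retinal reductase gene Dhrs3 at −0.08 (adjusted p = 0.78). Of 16 conjugating and hydrolysing enzymes none was called, 12 had a negative fold change and the median was −0.22. Ephx1, the epoxide hydrolase that acts on P450 products, averaged 229 ± 9.59 CPM in LPS mice and 182 ± 13.6 CPM in PBS mice (SD, n = 3 and n = 5; log2 fold change 0.33, edgeR adjusted p = 0.17). The glutathione transferase genes Gsta3 and Gstm1 stood at −0.73 (edgeR adjusted p = 0.21) and 0.01 (adjusted p = 0.99), the sulfotransferase gene Sult1a1 at −0.38 (adjusted p = 0.30) and the carboxylesterase gene Ces1d at −0.02 (adjusted p = 0.96).

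**Figure D4:**
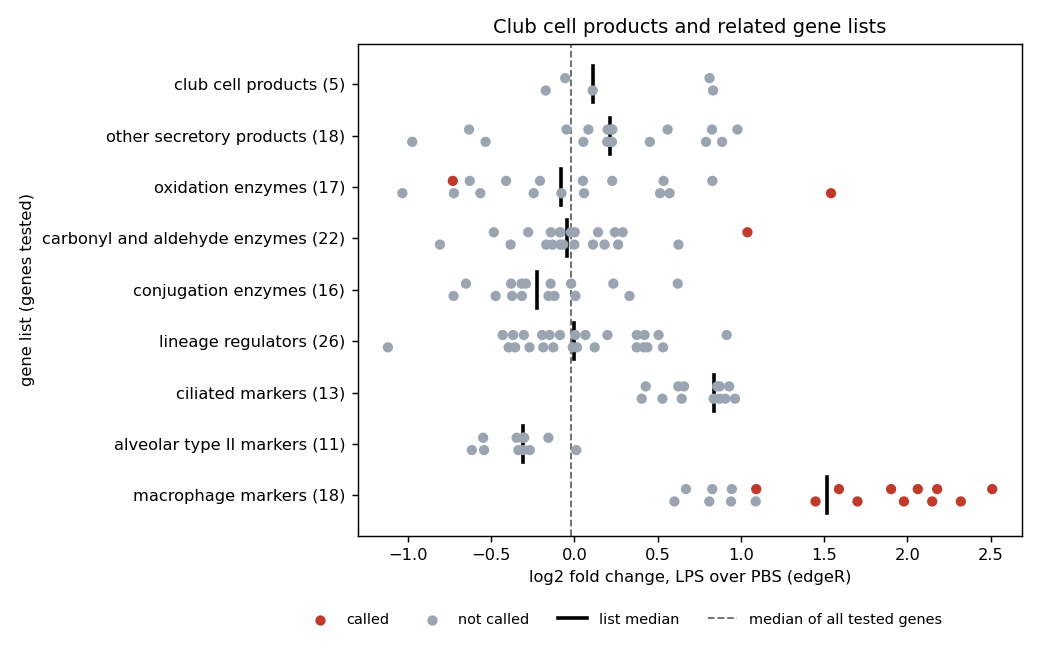
Log2 fold change of LPS over PBS (edgeR, x axis) for each tested gene of 9 lists (rows, number of tested genes in brackets), red where the gene was called, with a black bar at the list's median and a dashed line at the median of all tested genes (−0.02). No club cell gene was red, and the macrophage markers held 11 of the 14 red points shown.

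Of 26 regulators of the secretory lineage none was called, 13 were positive and 13 negative, and the median was −0.003. Nkx2-1, which encodes the known activator of Scgb1a1 and Scgb3a2, averaged 421 ± 127 CPM in LPS mice and 416 ± 95.9 CPM in PBS mice (SD, n = 3 and n = 5; log2 fold change 0.02, edgeR adjusted p = 0.99). Cebpa, which encodes another factor of Scgb1a1 transcription, stood at −0.13 (adjusted p = 0.77). Hes1, the Notch target that goes with secretory fate, stood at 0.51 (adjusted p = 0.15), the epithelial ETS factor gene Elf3 at 0.42 (adjusted p = 0.19) and Nfib at −0.37 (adjusted p = 0.15).

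Other cell types in the sort moved as follows beside the club cell genes. None of 13 ciliated markers was called, but all 13 were positive, with a median of 0.84, and 7 of 13 showed no overlap with LPS higher, against 8.52% of all genes. Their summed share of UMIs was 0.672 to 0.788% in LPS mice and 0.160 to 0.551% in PBS mice. Foxj1 stood at 0.96 (edgeR adjusted p = 0.18) and Tppp3 at 0.87 (adjusted p = 0.099). Tppp3 was called with DESeq2 (0.88, adjusted p = 0.021) and without PBS s6 (0.70, edgeR adjusted p = 0.036), where 2 of the 13 markers were higher. Of 11 alveolar type II markers none was called and 10 were negative, with a median of −0.31 and a summed share of 11.6 to 12.4% in LPS mice and 13.8 to 17.3% in PBS mice. In 3 of the 11 (Sftpc, Sftpb and Napsa) the groups did not overlap, with LPS lower, against 5.86% of all genes. Sftpc averaged 69309 ± 3942 CPM in LPS mice and 101398 ± 21316 CPM in PBS mice (SD, n = 3 and n = 5; log2 fold change −0.55, edgeR adjusted p = 0.30), Sftpb stood at −0.62 (adjusted p = 0.17) and Napsa at −0.54 (adjusted p = 0.16). DESeq2 called Sftpb lower (−0.62, adjusted p = 0.024), the only call among these markers with that tool. Of 18 macrophage markers tested (20 listed), which the CD45- gate should exclude, 11 rose and none fell, with a median of 1.52. The 11 became 4 without LPS s4, 5 without LPS s18 and 6 without PBS s11. These markers summed to 0.130 to 0.260% of UMIs in LPS mice and 0.0392 to 0.0819% in PBS mice, and the complement gene C1qb averaged 44.0 ± 11.8 CPM in LPS mice and 7.53 ± 2.33 CPM in PBS mice (SD, n = 3 and n = 5; log2 fold change 2.51, edgeR adjusted p = 0.0013). Of 7 fibroblast markers tested none was called and all 7 were negative (median −0.79). Their summed share was 0.0067 to 0.030% in LPS mice and 0.0204 to 0.0506% in PBS mice. No call was made among 7 lymphocyte markers (3 positive and 4 negative, median −0.28) or 8 endothelial markers (3 positive and 5 negative, median −0.07). The part of these other cell types in the values of the club cell genes was not tested. The 5 club cell genes themselves summed to 2.59 to 4.73% of UMIs in LPS mice and 2.11 to 6.20% in PBS mice.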

How the data were processed

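Bulk MARS-seq was performed on 10000 sorted lung epithelial cells per mouse, from 3 LPS and 5 PBS mice. The authors processed the reads with the UTAP pipeline (mm10, RefSeq genes) and deposited raw UMI counts per gene and mouse. The aligner was not given in the sources used here. Besides these counts, the table holds 16 other columns of values over all mice (normalized or transformed) and the authors' own comparison columns, none of which was used. Column names give the group but no replicate number. The labels call the mice biological replicates. The 5 club cell genes, the related lists and the alternatives were chosen with earlier results of these data known.

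Genes with at least 30 UMIs over the 8 libraries (12661 of 13265) were tested with edgeR 4.0.16 (TMM, quasi-likelihood, no covariate, R 4.3.3), and p-values were adjusted by Benjamini-Hochberg over all of them. The study's methods name DESeq2, which was run here as an alternative (1.42.0), as was limma-voom (limma 3.58.1). The script was tested on simulated data. CPM values used TMM-scaled totals, and log2 CPM a prior count of 2. Ratios used 0.5 added to each count. Permutation tests were two-sided and exact (Python 3.11.15, numpy 2.4.6). Named genes were the 5 club cell genes, and per list all called genes or the 3 with the smallest p and the 2 most abundant, the 5 most similar genes per club cell gene, and 4 markers. Promoters are from RefSeq (GRCm38.p6) and end before the first start in RefSeq or GENCODE. They are shown for 3 of the 5 genes, since no window was at hand for Scgb1a1 and Scgb3a2 was left out of the search. Alternatives covered normalization, filters, thresholds, tools and libraries left out. No pair of libraries agreed within sampling noise (chi-square per degree of freedom at least 2.81). The lowest value was that of PBS s1 with PBS s2, and the next was 7.18 (LPS s4 with LPS s14). The LPS libraries had values of 7.31 to 14.9 with PBS s1 and s2, and of 15.8 to 27.5 with PBS s6, s11 and s16. The cause of this split of the PBS libraries was not tested.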

Additional observations from a re-analysis of the deposited data

Results flagged for a closer look

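The 44 genes examined here were the 5 club cell genes and most others named from the lists or as markers. Genes named only for their similarity or spread, such as Ltf and Tff2, were not among them, nor were Pdpn and Clca1. In 6 of the 44 genes, 1 library of the 5 PBS mice lay apart from the other 4 (gap over range above Dixon's 95% critical value of 0.71), where chance gives about 1 in 20. Many of these genes vary together, so their values do not stand apart independently. In 5 of the 6 it was the highest library, PBS s16: Scgb1a1 with 40135 CPM there, Scgb3a1 with 8239 CPM, Scgb3a2 with 3305 CPM, Chad with 136 CPM and Bpifa1 with 5799 CPM. The sixth was Tppp3, whose lowest PBS library was s6 with 648 CPM. The result depended on the scale: on log2 CPM, a choice made after seeing the data, Tppp3 alone of the 44 genes passed (0.819), and the gap over range was 0.616 for Scgb1a1, 0.452 for Scgb3a1 and 0.644 for Scgb3a2. The groups of 3 LPS mice were not examined in this way.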

How the results depend on the processing

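No paired analysis was possible because the table's columns carry no replicate number that the labels give. None of the 5 club cell genes was called in either direction under any alternative, leaving out each library included. Cyp2f2, Scgb3a1 and Cbr2 kept their signs throughout, with Cyp2f2 at 0.67 to 1.03 and an edgeR adjusted p of 0.076 to 0.39 without one library. Scgb1a1 turned to 0.36 with limma-voom, 0.11 with library totals only, 0.042 with totals without the club cell genes and Sftpc, and 1.37 without PBS s6, s11 and s16, and lay between −0.49 and 0.95 without one library. Scgb3a2 turned to −0.30 without PBS s1 and s2 and lay between −0.32 and 1.08 without one library. Genes higher and lower numbered 369 and 191 with DESeq2, 84 and 23 with glmTreat and 528 and 381 without PBS s1 and s2, and lower genes 42 with library totals only and 47 without PBS s6, s11 and s16. Without one library 47 to 259 genes were higher and 12 to 95 lower. Genes called in the related lists, 2 higher and 1 lower as reported, became 5 and 2 with DESeq2, 0 and 0 with glmTreat and 6 and 4 without PBS s1 and s2, and 0 to 3 and 0 to 1 without one library.

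Markers of other cells gained calls in some settings. Without PBS s1 and s2, 3 of 13 ciliated markers were higher (Foxj1 1.59, edgeR adjusted p = 0.010) and 3 of 11 alveolar type II markers lower, with adjusted p of 0.029 for Sftpc, 0.026 for Sftpb and 0.028 for Napsa. Without PBS s6, s11 and s16, 3 ciliated markers were higher (Tppp3 0.71, adjusted p = 0.033).

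The genes with log2 fold changes near 0 turned sign in some settings, with no call. Akr1a1 stood at 0.028, Ces1d at 0.0645 and Epcam at 0.0122 with library totals only, and Ces1d at 0.0307 with totals without the club cell genes and Sftpc. Gstm1 stood at −0.12, Cebpa at 0.0319, Epcam at 0.11 and Krt5 at 0.56 without PBS s1 and s2, and Cyb5r3 at −0.0395, Akr1a1 at 0.21, Ces1d at 0.0081 and Nkx2-1 at −0.22 without PBS s6, s11 and s16. Without one library the ranges were −0.14 to 0.0043 for Akr1a1, −1.37 to 0.17 for Bpifa1, −0.0427 to 0.16 for Cyb5r3, −0.19 to 0.0236 for Epcam, −0.0528 to 0.13 for Gstm1, −0.24 to 0.21 for Nkx2-1 and −0.61 to 0.0428 for Krt5. The log2 ratio differences that turned were those of Cyp2f2 to Tppp3 (−0.18 to 0.0694), Scgb3a1 to Foxj1 (−0.25 to 0.61), Scgb3a1 to Tppp3 (−0.0407 to 0.71) and Scgb3a2 to Tppp3 (−0.74 to 0.0625). The cause of these changes was not tested. With 3 and 5 mice per group, the spread between mice and not the UMI counts limited the precision for these abundant genes.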

Other observations

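Markers of rarer airway cells, which were outside the comparisons above, were mostly at low levels. Of 5 goblet markers tested none was called, 3 were positive and 2 negative, and the median log2 fold change was 0.53. Among them Gp2, a gene of mucous cells, had 22.1, 34.97 and 63.8 CPM in LPS libraries s4, s14 and s18, against 23.3, 14.5, 3.98, 11.1 and 29.9 CPM in PBS libraries s1, s2, s6, s11 and s16 (log2 fold change 1.28, edgeR adjusted p = 0.17). Spdef, the regulator of goblet cell differentiation, stood at 0.53 (adjusted p = 0.36) and Clca1 at −0.96 (adjusted p = 0.38). Of 4 basal cell markers none was called and all 4 were negative (median −0.50), with Krt5 at −0.27 (adjusted p = 0.84). Of 4 neuroendocrine markers none was called and all 4 were negative (median −1.13), and 3 showed no overlap between LPS and PBS mice with LPS lower, against 5.86% of all genes. Calca, which encodes a neuropeptide precursor, averaged 6.65 ± 2.37 CPM in LPS mice and 13.3 ± 4.03 CPM in PBS mice (SD, n = 3 and n = 5; log2 fold change −1.02, edgeR adjusted p = 0.12). Scg5, a secretory granule chaperone gene, averaged 1.55 ± 0.32 CPM in LPS mice and 4.66 ± 1.73 CPM in PBS mice (SD, n = 3 and n = 5; log2 fold change −1.54, edgeR adjusted p = 0.090, and 0.035 without PBS s6). A count of 3 UMIs stood for 0.67 to 1.45 CPM over the 8 libraries, so the Scg5 values in LPS mice rested on few UMIs. Of 9 alveolar type I markers none was called, 3 were positive and 6 negative, and the median was −0.09. Pdpn stood at 0.97 (edgeR adjusted p = 0.10), with LPS libraries all above PBS libraries. The water channel gene Aqp5 came nearest to a call, with 271 ± 29.8 CPM in LPS mice and 394 ± 10.4 CPM in PBS mice (SD, n = 3 and n = 5; log2 fold change −0.54, edgeR adjusted p = 0.0503). Aqp5 was called lower with DESeq2 (−0.54, adjusted p = 0.00046), with limma-voom (adjusted p = 0.041), with edgeR's filterByExpr (adjusted p = 0.045) and without PBS s1 and s2 (adjusted p = 0.038).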
